A study of Mus musculus with 16 samples.

Results

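The genes described here encode proteins that choose splice sites in mouse messenger RNA: 11 SR proteins (Srsf genes), 19 hnRNP proteins, the 9 subunits of the SF3a and SF3b complexes with numbered symbols, and 15 tissue-type regulators of exon choice (3 Ptbp, 3 Mbnl, 6 Celf and 3 Rbfox genes). They were chosen by symbol alone, without Hnrnpk and without pseudogene models, and gave 54 of the 41258 entries of a table of FPKM, fragment counts scaled to transcript length and library size. The table holds 8 libraries of total RNA from mouse embryonic stem cells in 4 groups of 2. The groups were Dgcr8-/- cells after 48 h in N2B27 with bFGF and KSR, Dgcr8-/- cells in 2iL, wild-type cells after the same 48 h, and wild-type cells in 2iL. 2iL is a medium with LIF and 2 kinase inhibitors that holds the cells in the naive state, and the 48 h medium lets them leave it. All groups share the strain label 129/C57BL/6 and passages 9 to 11, and no agent other than the media is named. Dgcr8 is the RNA-binding partner of Drosha that most microRNAs need for their first cleavage, and the knockout cells carry the disrupted gene in both media. The knockout came as 1 line (ES1) and the wild type as 1 line (v65), so genotype and line cannot be told apart. The design calls the 2 libraries of a group biological replicates, but the sources used here do not say what was repeated. The p-values below therefore measure the spread between these libraries, which may be technical.

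SR proteins carry RNA recognition motifs and a tail rich in arginine and serine, bind exonic enhancers and promote inclusion of the exon. hnRNP proteins are abundant nuclear RNA-binding proteins, many of which silence exons or splice sites and so act against SR proteins at the same transcripts. SF3a and SF3b are parts of the U2 snRNP, the particle that recognises the branch point in every major-type intron. PTBP, MBNL, CELF and RBFOX proteins bind short motifs in pre-mRNA and switch particular exons between tissues; MBNL proteins are known to favour the splicing patterns of differentiated cells over those of embryonic stem cells. Many of these genes also control their own output through exons that send the transcript to decay, which a gene-level FPKM does not show.

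The label check came first: Dgcr8 had 7.84 and 7.80 FPKM in Dgcr8-/- cells at 48 h, 9.11 and 9.33 in Dgcr8-/- cells in 2iL, 20.7 and 20.9 in wild-type cells at 48 h, and 18.3 and 19.2 in wild-type cells in 2iL. Every knockout library lay below every wild-type library, with transcript still counted in the knockout. Summed pluripotency markers (Pou5f1, Sox2, Nanog, Esrrb, Zfp42, Klf4 and Tfcp2l1) reached 1220 to 1293 FPKM in Dgcr8-/- cells at 48 h and 1933 to 2013 in 2iL, against 758 to 800.3 in wild-type cells at 48 h and 1703 to 1737 in 2iL. At 48 h most of that sum was Pou5f1, with 874 and 821 FPKM in Dgcr8-/- and 738 and 695 in wild-type cells. Nanog then had 56.1 and 56.7 FPKM in Dgcr8-/- and 5.38 and 5.31 in wild-type cells, and Esrrb 52.0 and 47.2 against 5.53 and 4.17. Each of these markers was higher in the knockout at 48 h. Summed markers of the next, formative state (Otx2, Pou3f1, Fgf5, Dnmt3b and Dnmt3a) reached 303 to 310.3 FPKM in Dgcr8-/- cells at 48 h and 74.6 to 81.3 in 2iL, against 903 to 925 in wild-type cells at 48 h and 130 to 141 in 2iL. Dnmt3b and Dnmt3a made up most of the formative sum. Otx2 went the other way, with 41.2 and 38.0 FPKM in Dgcr8-/- and 26.9 and 26.7 in wild-type cells at 48 h. At 48 h the knockout thus had more pluripotency marker RNA than the wild type, and less formative marker RNA as a sum but not for Otx2. In bulk RNA fewer cells of a type and less RNA per cell cannot be told apart. Of 6 fibroblast or feeder markers the sum was 17.9 to 18.1 FPKM in Dgcr8-/- cells at 48 h and 1.45 to 1.56 in 2iL, against 11.4 to 12.1 in wild-type cells at 48 h and 2.48 to 2.66 in 2iL. Most of it was Thy1 and Dcn, and Col3a1 and Postn stayed below 0.1 FPKM in every library. Dcn had 11.9 and 12.6 FPKM in Dgcr8-/- cells at 48 h, 0.0372 and 0 in Dgcr8-/- cells in 2iL, 2.22 and 1.74 in wild-type cells at 48 h, and 0 in both wild-type 2iL libraries. None of 5 primitive endoderm markers reached a group mean of 1 FPKM, and their sum lay between 0.573 and 2.17. The part of these marker levels in the results below was not tested. The table gives no read numbers, so the depth is unknown, and the FPKM of all entries summed to between 475271 and 548453 per library. That total was lower in each knockout library than in each wild-type library. Its part in the genotype differences below was not tested. Differences below are on the log2(FPKM + 1) scale, which understates changes of low genes. A gene was tested where 2 or more libraries reached 1 FPKM, which left 13172 genes, and it was called at an adjusted p below 0.05 in limma's moderated test over all of them.

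Of the 54 genes, 50 passed that filter. Celf3, Celf6, Rbfox1 and Rbfox3, all best known from neurons, did not, and their highest value in any library was Rbfox3's 0.957 FPKM in a wild-type library at 48 h. The median of the genes' mean levels was 68.4 FPKM over all 54, against 9.39 FPKM over the genes tested. Hnrnpa3, Hnrnpa1 and Hnrnpa2b1, hnRNP proteins of the A/B group that silence exons and accompany mRNA to the cytoplasm, had the highest levels of the set, with means of 996, 858 and 699 FPKM. Among families the median of the mean levels was 151 FPKM for the hnRNP proteins and 145 for the SR proteins, 69.1 for SF3, 15.7 for PTBP, 3.61 for MBNL, 2.64 for CELF and 0.374 for RBFOX. The set as a whole took 1.60% and 1.62% of all FPKM in Dgcr8-/- cells at 48 h and 1.496% and 1.46% in 2iL, against 1.67% and 1.69% in wild-type cells at 48 h and 1.56% and 1.54% in 2iL.

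**Figure D1:**
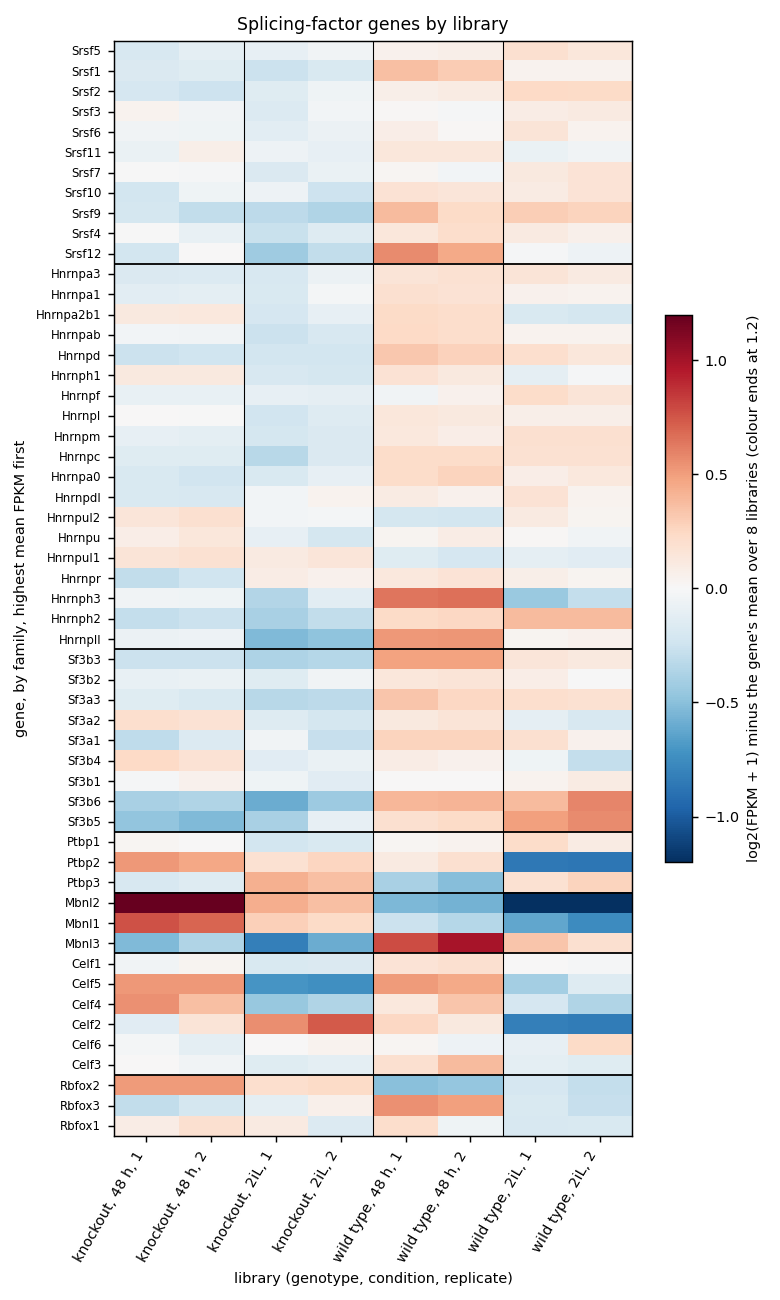
log2(FPKM + 1) of all 54 genes in each of the 8 libraries, as the difference from the gene's own mean over the libraries. Columns are libraries in the order Dgcr8-/- (KO) at 48 h, Dgcr8-/- in 2iL, wild type (WT) at 48 h and wild type in 2iL, and genes are grouped by family. The 2 libraries of a group resemble each other, Mbnl1, Mbnl2 and Rbfox2 stand high in the knockout columns, and Mbnl3 stands high in the wild-type columns.

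The muscleblind genes showed the largest differences between genotypes at 48 h, and they did not all differ in one direction. MBNL proteins bind YGCY motifs and promote or block an exon according to where they sit beside it. Mbnl2 had 12.6 and 12.5 FPKM in Dgcr8-/- cells at 48 h, 5.53 and 5.18 in Dgcr8-/- cells in 2iL, 2.31 and 2.25 in wild-type cells at 48 h, and 0.767 and 1.06 in wild-type cells in 2iL. Mbnl1 had 6.30 and 5.99 FPKM in Dgcr8-/- cells at 48 h, 4.25 and 4.03 in Dgcr8-/- cells in 2iL, 2.59 and 2.396 in wild-type cells at 48 h, and 1.79 and 1.54 in wild-type cells in 2iL. For both genes the 4 groups stood in that order with no overlap between neighbours. Mbnl3, the family member known to act against muscle differentiation, had 0.727 and 0.938 FPKM in Dgcr8-/- cells at 48 h, 0.407 and 0.651 in Dgcr8-/- cells in 2iL, 3.28 and 3.95 in wild-type cells at 48 h, and 2.14 and 1.84 in wild-type cells in 2iL. All of its knockout libraries were below all of its wild-type libraries. Libraries of the 2 genotypes did not overlap for 86.8% of all genes tested at 48 h and for 80.8% in 2iL. The genotype difference of Mbnl2 was 2.04 (SE 0.09) at 48 h and 1.74 (SE 0.09) in 2iL, with adjusted p of 1.7e-06 and 7.0e-06 in limma. That of Mbnl1 was 1.03 (SE 0.09, adjusted p = 3.0e-05) and 0.95 (SE 0.09, adjusted p = 6.9e-05) in limma at the same times. Mbnl3 had a difference of -1.33 at 48 h and -0.97 in 2iL, given as a description with no test, since it passed the filter only through wild-type libraries.

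Because FPKM is per length, the 3 muscleblind transcripts can be set against each other. Mbnl2 made up 64.1% and 64.3% of their summed FPKM in Dgcr8-/- cells at 48 h and 54.3% and 52.5% in 2iL, against 28.3% and 26.2% in wild-type cells at 48 h and 16.3% and 23.8% in 2iL. Mbnl3 made up 3.71% and 4.83% of the sum in Dgcr8-/- cells at 48 h and 3.99% and 6.60% in 2iL, against 40.1% and 45.9% in wild-type cells at 48 h and 45.5% and 41.5% in 2iL. Mbnl3 was thus the largest of the 3 in each wild-type library and the smallest in each knockout library. The sum itself was 19.6 and 19.4 FPKM in Dgcr8-/- cells at 48 h and 10.2 and 9.86 in 2iL, against 8.19 and 8.60 in wild-type cells at 48 h and 4.70 and 4.44 in 2iL. Over the 48 h Mbnl2 rose in Dgcr8-/- cells (1.09, adjusted p = 8.5e-05 in limma) and in wild-type cells (0.78, adjusted p = 3.0e-04). Mbnl1 rose as well, by 0.48 in Dgcr8-/- and 0.39 in wild-type cells (limma's adjusted p 0.0033 and 0.0064). Mbnl3 had a difference of 0.26 (SE 0.13, adjusted p = 0.13 in limma) in Dgcr8-/- cells and rose in wild-type cells (0.62, SE 0.13, adjusted p = 0.0047). Neither Mbnl2 nor Mbnl1 was called for a difference between the genotypes in its 48 h change, where 42.8% of all genes were, and neither had an unadjusted p below 0.05 in limma. Limma's adjusted p was 0.10 for Mbnl2 (0.31, SE 0.13) and 0.60 for Mbnl1 (0.09, SE 0.12). For Mbnl3 this difference was -0.36 (SE 0.18), given as a description with no test, since the gene passed the filter only through wild-type libraries. Noncoding RNA models overlap Mbnl2 in the RefSeq annotation, and their reads cannot be told apart from its own where the counting did not use strand.

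The starts of Mbnl1, Mbnl2 and Ptbp2, which were higher in the knockout at both times, and of Mbnl3, the muscleblind gene with lower levels there, are shown. Each window runs 5′ to 3′ along the gene's strand, 250 bases before to 50 bases after a RefSeq transcript start (build GRCm38.p6). Capitals mark 4 motifs searched on both strands: the GC box (GGGCGG or CCGCCC), the CCAAT box (CCAAT or ATTGG), the TATA box (TATAAA or TTTATA) and the E-box CACGTG. Matches of one motif can overlap, as in TTTATAAA, which holds the TATA letters of both strands. Mbnl1 is shown at both of its starts in the table.
Mbnl1 upstream start, chr3:60472580-60472879, plus strand: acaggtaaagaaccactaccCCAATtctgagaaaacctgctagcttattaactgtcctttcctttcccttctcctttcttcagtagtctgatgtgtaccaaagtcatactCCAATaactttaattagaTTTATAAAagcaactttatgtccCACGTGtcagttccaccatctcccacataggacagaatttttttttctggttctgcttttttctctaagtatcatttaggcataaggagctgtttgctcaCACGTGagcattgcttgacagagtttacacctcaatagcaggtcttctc
Mbnl1 downstream start, chr3:60500929-60501228, plus strand: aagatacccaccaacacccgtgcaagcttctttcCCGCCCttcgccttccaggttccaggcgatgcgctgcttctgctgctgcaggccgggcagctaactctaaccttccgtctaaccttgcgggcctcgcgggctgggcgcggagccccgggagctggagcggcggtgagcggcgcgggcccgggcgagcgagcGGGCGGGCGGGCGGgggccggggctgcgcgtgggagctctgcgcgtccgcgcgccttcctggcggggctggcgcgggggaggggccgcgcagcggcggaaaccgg
Mbnl2, chr14:120275419-120275718, plus strand: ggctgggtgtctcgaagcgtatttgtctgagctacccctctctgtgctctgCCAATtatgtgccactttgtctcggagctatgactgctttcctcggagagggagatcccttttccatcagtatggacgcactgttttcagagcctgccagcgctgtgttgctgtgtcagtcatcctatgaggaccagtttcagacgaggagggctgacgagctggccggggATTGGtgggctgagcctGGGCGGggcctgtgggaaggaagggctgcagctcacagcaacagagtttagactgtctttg
Ptbp2, chr3:119783339-119783638, minus strand: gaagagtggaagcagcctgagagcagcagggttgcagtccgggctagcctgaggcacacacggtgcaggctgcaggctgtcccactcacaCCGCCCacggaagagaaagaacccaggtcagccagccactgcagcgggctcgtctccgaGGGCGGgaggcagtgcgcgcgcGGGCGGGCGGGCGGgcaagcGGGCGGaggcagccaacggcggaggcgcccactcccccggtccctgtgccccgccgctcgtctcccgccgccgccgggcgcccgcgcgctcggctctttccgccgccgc
Mbnl3, chrX:51205941-51206240, minus strand: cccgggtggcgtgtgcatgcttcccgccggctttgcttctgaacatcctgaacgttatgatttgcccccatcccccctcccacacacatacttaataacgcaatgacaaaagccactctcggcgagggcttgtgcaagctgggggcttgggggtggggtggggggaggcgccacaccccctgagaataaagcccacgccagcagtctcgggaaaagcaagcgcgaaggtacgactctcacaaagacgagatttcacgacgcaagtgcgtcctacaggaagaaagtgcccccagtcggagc

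The starts of Mbnl1 differ in composition, with 2 CpG and 39.3% G and C in the upstream window and 41 CpG and 75.0% in the downstream one. The upstream window holds 2 CCAAT matches, 2 TATA matches in 1 stretch and 2 E-box matches, and the downstream one holds 4 GC box matches. Ptbp2 has 36 CpG and 6 GC box matches, Mbnl2 has 10 CpG, 1 GC box and 2 CCAAT matches, and Mbnl3 has 19 CpG and none of the 4 motifs. RefSeq windows were matched for 47 of the 54 genes, 77 windows in all, and not for Celf4, Hnrnpll, Hnrnpul2, Ptbp3, Rbfox2, Sf3b4 and Sf3b5. A GC box stood in 67.5% of the genes' windows and in 35.7% of all 32851 windows of the table, a CCAAT box in 44.2% and 37.4%, a TATA box in 11.7% and 13.6%, and the E-box in 9.09% and 7.15%. The median number of CpG was 24 in the genes' windows and 7 in all windows. These matches describe letters and not binding, and the FPKM table does not tell which start was used.

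Ptbp2 was the member of its family that differed most, and its gap between the genotypes was smaller at 48 h. PTBP proteins bind pyrimidine tracts and mostly repress exons; PTBP1 is known to hold PTBP2 down outside neurons by causing an exon of Ptbp2 to be skipped, which sends the transcript to decay. Ptbp2 had 21.6 and 20.7 FPKM in Dgcr8-/- cells at 48 h, 16.9 and 17.8 in Dgcr8-/- cells in 2iL, 16.0 and 17.0 in wild-type cells at 48 h, and 7.69 and 7.63 in wild-type cells in 2iL. The wild-type 2iL libraries stood apart as the lowest, and the wild-type libraries at 48 h overlapped the knockout libraries in 2iL. In 2iL the genotypes did not overlap for 80.8% of all genes tested, nor did the media in wild-type cells for 79.7%. The genotype difference of Ptbp2 was 1.08 (SE 0.06, adjusted p = 6.7e-06 in limma) in 2iL and 0.34 (SE 0.06, adjusted p = 0.0013) at 48 h. Ptbp2 rose in Dgcr8-/- cells by 0.27 (adjusted p = 0.0070 in limma) and in wild-type cells by 1.01 (adjusted p = 7.3e-06). Without the first knockout library at 48 h the rise in Dgcr8-/- cells was not called (0.24, adjusted p = 0.051 in limma). The 2 changes differed by -0.74 (SE 0.08, adjusted p = 0.00041 in limma).

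Ptbp1 had 307 and 305 FPKM in Dgcr8-/- cells at 48 h, 259.6 and 266 in Dgcr8-/- cells in 2iL, 309 and 311 in wild-type cells at 48 h, and 353 and 325 in wild-type cells in 2iL. Its knockout 2iL libraries were the lowest and its wild-type 2iL libraries the highest, while at 48 h the genotypes were close. It was lower in the knockout in 2iL (-0.36, SE 0.05, adjusted p = 0.00039 in limma), with a difference of -0.02 at 48 h (SE 0.05, adjusted p = 0.72). With quantile scaling the difference in 2iL was -0.12 (adjusted p = 0.047 in limma). The 48 h change was a rise in Dgcr8-/- cells (0.22, adjusted p = 0.0071 in limma) and -0.13 in wild-type cells (adjusted p = 0.054), and these differed by 0.34 (adjusted p = 0.0054). Set against Ptbp1, Ptbp2 stood at 7.04% and 6.78% in Dgcr8-/- cells at 48 h and 6.51% and 6.70% in 2iL, against 5.19% and 5.45% in wild-type cells at 48 h and 2.18% and 2.35% in 2iL. Ptbp3, first known from blood cells, had 11.0 and 11.3 FPKM in Dgcr8-/- cells at 48 h, 17.5 and 16.7 in Dgcr8-/- cells in 2iL, 9.51 and 8.67 in wild-type cells at 48 h, and 14.6 and 15.5 in wild-type cells in 2iL. It was the one gene of the set that fell over the 48 h in both genotypes, where 11.8% of all genes did, with -0.57 (adjusted p = 0.00036 in limma) in Dgcr8-/- cells and -0.67 (adjusted p = 0.00011) in wild-type cells. The rank of Ptbp2 and Ptbp3 turned over time in the wild type, where Ptbp2 was 168% and 196% of Ptbp3 at 48 h and 52.5% and 49.2% in 2iL. At 48 h Ptbp3 was higher in the knockout by 0.27 (adjusted p = 0.0070 in limma), a call that was lost without the second wild-type library at 48 h (0.21, adjusted p = 0.051). Plppr3 and a noncoding model overlap Ptbp1, so a share of its reads may belong to them.

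**Figure D2:**
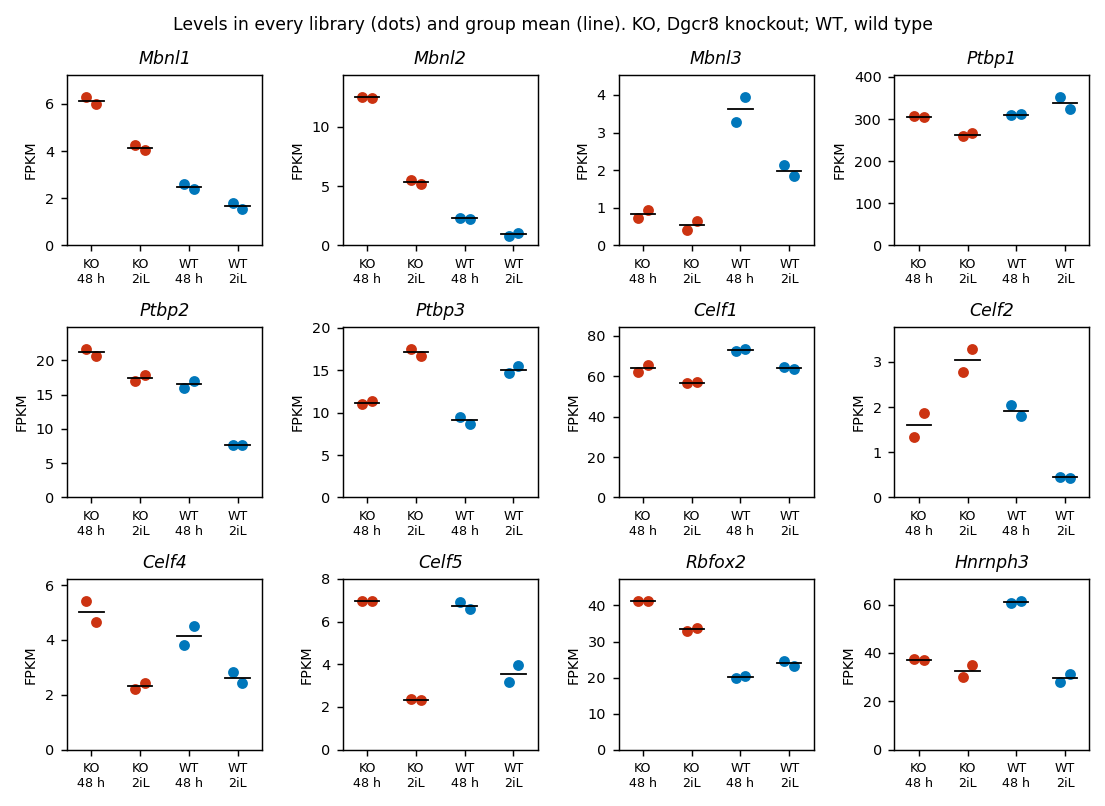
FPKM of the 11 tested Mbnl, Ptbp, Celf and Rbfox genes and of Hnrnph3, one panel each with its own axis from 0. Dots are the 2 libraries of each group, lines are group means, and groups run from left to right as Dgcr8-/- (KO) at 48 h, Dgcr8-/- in 2iL, wild type (WT) at 48 h and wild type in 2iL. Mbnl2 stands at 12.6 and 12.5 FPKM in the knockout at 48 h, and Celf2 and Rbfox2 move in opposite directions between the media in the 2 genotypes.

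CELF proteins bind GU-rich elements and often act against MBNL at the same exons, and CELF1 and CELF2 are the broadly expressed members. Celf2 moved in opposite directions in the 2 genotypes. It had 1.35 and 1.87 FPKM in Dgcr8-/- cells at 48 h, 2.79 and 3.29 in Dgcr8-/- cells in 2iL, 2.05 and 1.79 in wild-type cells at 48 h, and 0.460 and 0.440 in wild-type cells in 2iL. The genotypes' libraries overlapped at 48 h and were apart in 2iL, where they were apart for 80.8% of all genes tested. Celf2 fell in Dgcr8-/- cells (-0.64, SE 0.12, adjusted p = 0.0048 in limma) and rose in wild-type cells (1.01, SE 0.12, adjusted p = 0.00037), and these changes differed by -1.65 (SE 0.18, adjusted p = 0.00037). In 2iL it was higher in the knockout by 1.47 (SE 0.12, adjusted p = 5.1e-05 in limma), and at 48 h the difference was -0.17 (adjusted p = 0.25). A noncoding RNA model overlaps Celf2, and at these levels a few reads weigh on the value.

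Celf5 had 6.95 and 6.96 FPKM in Dgcr8-/- cells at 48 h, 2.38 and 2.32 in Dgcr8-/- cells in 2iL, 6.90 and 6.60 in wild-type cells at 48 h, and 3.17 and 3.97 in wild-type cells in 2iL. Celf4 had 5.41 and 4.65 FPKM in Dgcr8-/- cells at 48 h, 2.21 and 2.42 in Dgcr8-/- cells in 2iL, 3.80 and 4.51 in wild-type cells at 48 h, and 2.82 and 2.42 in wild-type cells in 2iL. Both are best known from the nervous system, and both were higher at 48 h than in 2iL in each genotype. Noncoding RNA models overlap Celf4. Celf5 rose by 1.25 (adjusted p = 5.0e-05 in limma) in Dgcr8-/- cells and by 0.77 (adjusted p = 0.00039) in wild-type cells, Celf4 by 0.86 (adjusted p = 0.00067) and 0.51 (adjusted p = 0.0065). Celf5's changes differed by 0.48 (adjusted p = 0.026 in limma), a call that was lost when any 1 library other than the first wild-type 2iL one was left out, with adjusted p between 0.051 and 0.083. Celf1, much the most abundant of the family at 56.5 to 73.4 FPKM, rose in both genotypes (0.17 in Dgcr8-/- and 0.18 in wild-type cells) and was called lower in the knockout at both times on the deposited values (-0.18 at 48 h and -0.17 in 2iL). With quantile scaling neither of these calls held (-0.060, adjusted p = 0.25 in limma, at 48 h and -0.034, adjusted p = 0.52, in 2iL). Its rise in wild-type cells was not called with median-ratio scaling (0.11, adjusted p = 0.054 in limma). Its rise in Dgcr8-/- cells was not called without the second knockout library at 48 h (0.13, adjusted p = 0.087 in limma). Of 7 neuron markers looked for, 6 were found, and their sum was 158 to 161 FPKM in Dgcr8-/- cells at 48 h and 156 to 172 in 2iL, against 37.3 to 39.8 in wild-type cells at 48 h and 192 to 196 in 2iL. Stmn2 made up most of that sum, and Map2 was also higher in the knockout at 48 h. Elavl3, Elavl4 and Snap25 went the other way. At 48 h Elavl3 had 0.867 and 1.08 FPKM in Dgcr8-/- and 4.47 and 4.55 in wild-type cells. Snap25 had 0.185 and 0.184 FPKM in Dgcr8-/- and 3.03 and 3.04 in wild-type cells at that time. Dcx stayed at or below 0.223 FPKM in every library, and the part of these transcripts in the Celf and Ptbp2 values was not tested.

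Rbfox2, which binds GCAUG and promotes exons that lie upstream of its site, was the 1 tested member of its family. It had 41.2 FPKM in both Dgcr8-/- libraries at 48 h, 33.0 and 33.7 in Dgcr8-/- cells in 2iL, 19.9 and 20.4 in wild-type cells at 48 h, and 24.6 and 23.3 in wild-type cells in 2iL. The genotypes were apart at both times, as they were for 86.8% of all genes tested at 48 h and 80.8% in 2iL. The gap of Rbfox2 was wider at 48 h. The difference was 1.00 (SE 0.05, adjusted p = 1.9e-06 in limma) at 48 h and 0.46 (SE 0.05, adjusted p = 0.00012) in 2iL. Rbfox2 rose over the 48 h in Dgcr8-/- cells (0.30, adjusted p = 0.0017 in limma) and fell in wild-type cells (-0.24, adjusted p = 0.0036), and these changes differed by 0.54 (SE 0.07, adjusted p = 0.00069). A noncoding RNA model and a pseudogene model overlap it.

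Among the hnRNP proteins 2 were higher and 13 lower in the knockout at 48 h, and 1 was higher and 12 lower in 2iL, a lean to lower values that was lost with quantile scaling of the libraries and kept with median-ratio scaling. Over all 50 tested genes 7 were higher and 29 lower at 48 h, where 33.3% of all genes were called higher and 38.5% lower (71.8% in either direction). In 2iL 6 were higher and 33 lower, where 30.6% of all genes were called higher and 32.8% lower (63.4% in either direction). Mbnl3 and Srsf12 passed the filter only through wild-type libraries. Without these 2 genes, 7 of 48 were higher and 27 lower at 48 h, and 6 were higher and 31 lower in 2iL. With median-ratio scaling the hnRNP proteins gave 2 higher and 13 lower at 48 h and 2 higher and 11 lower in 2iL. With quantile scaling they gave 5 higher and 7 lower at 48 h and 6 higher and 6 lower in 2iL. Of all genes called with median-ratio scaling, 50.2% were higher at 48 h and 51% in 2iL. With quantile scaling these shares were 45.6% and 47.2%. The median difference of the hnRNP genes, -0.27 at 48 h and -0.24 in 2iL on the deposited values, was -0.0014 and 0.0076 with quantile scaling, so that its sign in 2iL turned. The most abundant members were among those affected. Hnrnpa3 had 875 and 883 FPKM in Dgcr8-/- cells at 48 h, 867 and 946 in Dgcr8-/- cells in 2iL, 1099 and 1124 in wild-type cells at 48 h, and 1104 and 1068 in wild-type cells in 2iL. Hnrnpa1 had 783 and 789.8 FPKM in Dgcr8-/- cells at 48 h, 752 and 838 in Dgcr8-/- cells in 2iL, 974 and 963 in wild-type cells at 48 h, and 883 and 879 in wild-type cells in 2iL. Both were called lower in the knockout at 48 h (-0.34 and -0.30) and in 2iL (-0.26 and -0.15) on the deposited FPKM, and the sign of all 4 differences turned with quantile scaling. Hnrnpa1's call in 2iL was also lost without any 1 library other than the second knockout 2iL one, with limma's adjusted p between 0.073 and 0.15. Hnrnpa2b1 had 755 FPKM in both Dgcr8-/- libraries at 48 h, 604 and 648 in Dgcr8-/- cells in 2iL, 814 and 805 in wild-type cells at 48 h, and 612 and 600.5 in wild-type cells in 2iL. It rose over the 48 h in Dgcr8-/- cells (0.27, adjusted p = 0.0022 in limma) and in wild-type cells (0.42, adjusted p = 0.00018) and was not called between the genotypes on the deposited values. With quantile scaling it was called higher in the knockout at 48 h (0.16, adjusted p = 0.00035 in limma), where the sign turned, and in 2iL (0.22, adjusted p = 0.00011). With median-ratio scaling it was called higher in 2iL (0.080, adjusted p = 0.040 in limma).

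Other hnRNP genes kept their direction in every scaling tried. Hnrnpll, a regulator of CD45 exons in lymphocytes, had 29.9 and 30.0 FPKM in Dgcr8-/- cells at 48 h, 21.4 and 22.1 in Dgcr8-/- cells in 2iL, 45.5 and 45.7 in wild-type cells at 48 h, and 32.2 and 32.5 in wild-type cells in 2iL. Hnrnph2, which binds runs of G, had 31.6 and 32.2 FPKM in Dgcr8-/- cells at 48 h, 29.4 and 31.5 in Dgcr8-/- cells in 2iL, 45.6 and 46.2 in wild-type cells at 48 h, and 50.8 and 50.7 in wild-type cells in 2iL. In both genes every knockout library lay below every wild-type library, where the genotypes did not overlap for 86.8% of all genes at 48 h and 80.8% in 2iL. The genotype difference of Hnrnpll, which a protein-coding model and others overlap, was -0.59 (adjusted p = 1.3e-05 in limma) at 48 h and -0.55 (adjusted p = 2.9e-05) in 2iL. That of Hnrnph2 was -0.51 (adjusted p = 4.8e-05 in limma) at 48 h and -0.72 (adjusted p = 1.6e-05) in 2iL. Hnrnpul1, a relative of the scaffold protein HNRNPU, went the other way, with 63.7 and 65.1 FPKM in Dgcr8-/- cells at 48 h, 61.9 and 63.2 in Dgcr8-/- cells in 2iL, 51.6 and 49.6 in wild-type cells at 48 h, and 53.2 and 52.1 in wild-type cells in 2iL. It was higher in the knockout at 48 h (0.34, adjusted p = 0.00019 in limma) and in 2iL (0.24, adjusted p = 0.0014).

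For 3 further hnRNP genes the change over the 48 h differed between the genotypes. Hnrnph3, a further member of the H/F group, had 37.4 and 37.0 FPKM in Dgcr8-/- cells at 48 h, 29.9 and 35.2 in Dgcr8-/- cells in 2iL, 60.5 and 61.4 in wild-type cells at 48 h, and 27.9 and 31.4 in wild-type cells in 2iL. The wild-type libraries at 48 h stood apart from all others. Between the genotypes at 48 h, libraries did not overlap for 86.8% of all genes tested. Between the media they did not overlap for 79.7% in wild-type and 74.2% in Dgcr8-/- cells. Hnrnph3 was not called in Dgcr8-/- cells (0.19, SE 0.08, adjusted p = 0.098 in limma) and rose in wild-type cells (1.02, SE 0.08, adjusted p = 4.7e-05). The changes differed by -0.82 (adjusted p = 0.0015 in limma). At 48 h it was lower in the knockout (-0.70, adjusted p = 0.00021 in limma). Rufy2 overlaps it in the annotation. Hnrnpr, known from transport of actin mRNA in neurons, had 40.3 and 41.8 FPKM in Dgcr8-/- cells at 48 h, 52.8 and 51.3 in Dgcr8-/- cells in 2iL, 54.0 and 55.6 in wild-type cells at 48 h, and 52.0 and 50.8 in wild-type cells in 2iL. Here the knockout libraries at 48 h stood apart as the lowest. Hnrnpr fell in Dgcr8-/- cells (-0.34, adjusted p = 0.00059 in limma), with 0.09 (adjusted p = 0.10) in wild-type cells, and the changes differed by -0.43 (adjusted p = 0.0013). Hnrnpul2 had 72.3 and 74.8 FPKM in Dgcr8-/- cells at 48 h, 63.6 and 64.1 in Dgcr8-/- cells in 2iL, 56.0 and 55.9 in wild-type cells at 48 h, and 70.5 and 66.5 in wild-type cells in 2iL. It rose in Dgcr8-/- cells (0.20, adjusted p = 0.0074 in limma) and fell in wild-type cells (-0.29, adjusted p = 0.0010), and the changes differed by 0.49 (adjusted p = 0.00078). The rise was not called without the second knockout library at 48 h (0.18, adjusted p = 0.056 in limma). Hnrnph1 had 357 and 358 FPKM in Dgcr8-/- cells at 48 h, 288 and 284 in Dgcr8-/- cells in 2iL, 372 and 358 in wild-type cells at 48 h, and 305 and 325 in wild-type cells in 2iL, and it rose in Dgcr8-/- cells (0.32, adjusted p = 0.00086 in limma) and in wild-type cells (0.21, adjusted p = 0.0050).

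On the deposited FPKM 0 of 11 SR genes were higher and 8 lower in the knockout at 48 h, and 0 were higher and 10 lower in 2iL. Without Srsf12, which passed the filter only through wild-type libraries, 0 of 10 were higher and 7 lower at 48 h, and 0 were higher and 9 lower in 2iL. Over all genes 33.3% were called higher and 38.5% lower at 48 h, and 30.6% and 32.8% in 2iL. The same counts over the 11 came from limma's unadjusted p below 0.05. After median-ratio scaling 0 of the 11 were higher and 7 lower at 48 h, and 0 were higher and 10 lower in 2iL. After quantile scaling 3 were higher and 5 lower at 48 h, and 1 was higher and 5 lower in 2iL. Of all genes called with median-ratio scaling, 50.2% were higher at 48 h and 51% in 2iL. With quantile scaling these shares were 45.6% and 47.2%. The summed FPKM of the SR genes was 1591 and 1604 in Dgcr8-/- cells at 48 h and 1547 and 1609 in 2iL, against 1900.3 and 1874 in wild-type cells at 48 h and 1892 and 1875 in 2iL. The knockout sums did not overlap the wild-type sums, but the summed FPKM of all entries was also lower in each knockout library. Among single genes, the genotypes did not overlap for 86.8% of all tested at 48 h and 80.8% in 2iL. Srsf9 had 72.2 and 68.0 FPKM in Dgcr8-/- cells at 48 h, 67.4 and 64.9 in Dgcr8-/- cells in 2iL, 109.6 and 98.7 in wild-type cells at 48 h, and 103 and 101 in wild-type cells in 2iL. Its genotype difference was -0.56 (SE 0.06, adjusted p = 1.0e-04 in limma) at 48 h and -0.62 (SE 0.06, adjusted p = 9.2e-05) in 2iL, and Gatc overlaps it. Srsf1, the founding SR protein, had 245 and 249 FPKM in Dgcr8-/- cells at 48 h, 229.9 and 242 in Dgcr8-/- cells in 2iL, 354 and 341 in wild-type cells at 48 h, and 284 and 283 in wild-type cells in 2iL. Its genotype difference was -0.49 (adjusted p = 3.2e-05 in limma) at 48 h and -0.26 (adjusted p = 0.0011) in 2iL, and Srsf2 gave -0.31 and -0.33. Srsf1, Srsf2 and Srsf9 were called lower at both times in each of the 15 alternative settings. With quantile scaling their differences in 2iL were -0.080, -0.093 and -0.41, with limma's adjusted p of 0.032, 0.019 and 0.0012.

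Srsf12, the scarcest gene of the set to pass the filter, had 0.377 and 0.604 FPKM in Dgcr8-/- cells at 48 h, 0.196 and 0.303 in Dgcr8-/- cells in 2iL, 1.37 and 1.19 in wild-type cells at 48 h, and 0.590 and 0.533 in wild-type cells in 2iL. It passed the filter only through the wild-type libraries at 48 h. Srsf7, one of the smaller SR proteins, had 120.0 and 119 FPKM in Dgcr8-/- cells at 48 h, 106 and 114 in Dgcr8-/- cells in 2iL, 122 and 117 in wild-type cells at 48 h, and 129.8 and 134 in wild-type cells in 2iL. The genotypes overlapped at 48 h and were apart in 2iL, where they were apart for 80.8% of all genes tested. Its 48 h changes, 0.12 in Dgcr8-/- and -0.14 in wild-type cells, differed by 0.26 (adjusted p = 0.016 in limma), which was lost without the first knockout library at 48 h, the second wild-type library at 48 h or the second wild-type 2iL library, with adjusted p of 0.054, 0.062 and 0.055.

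Of the 9 SF3 genes, 0 were higher and 6 lower in the knockout at 48 h, and 0 were higher and 7 lower in 2iL, with the same counts at limma's unadjusted p below 0.05. The shares of all genes called lower were 38.5% at 48 h and 32.8% in 2iL. With median-ratio scaling 1 was higher and 6 lower at 48 h, and 0 were higher and 4 lower in 2iL. With quantile scaling 2 were higher and 5 lower at 48 h, and 3 were higher and 4 lower in 2iL. Of all genes called with median-ratio scaling, 50.2% were higher at 48 h and 51% in 2iL. With quantile scaling these shares were 45.6% and 47.2%. SF3B1 is the largest SF3b subunit and clamps the branch point helix, SF3B3 is a scaffold of it, SF3B6 touches the branch point adenosine, and SF3B5 is a small subunit. Sf3b6 had 26.3 and 26.9 FPKM in Dgcr8-/- cells at 48 h, 22.6 and 25.5 in Dgcr8-/- cells in 2iL, 45.9 and 46.4 in wild-type cells at 48 h, and 45.5 and 52.7 in wild-type cells in 2iL. Sf3b5 had 14.4 and 13.8 FPKM in Dgcr8-/- cells at 48 h, 15.4 and 19.0 in Dgcr8-/- cells in 2iL, 23.5 and 24.2 in wild-type cells at 48 h, and 29.2 and 30.8 in wild-type cells in 2iL. Sf3b3 had 109 FPKM in both Dgcr8-/- libraries at 48 h, 101 and 103 in Dgcr8-/- cells in 2iL, 183 and 182 in wild-type cells at 48 h, and 145 and 142 in wild-type cells in 2iL. For these 3 genes every knockout library lay below every wild-type library. The genotypes did not overlap for 86.8% of all genes tested at 48 h and for 80.8% in 2iL. The genotype difference of Sf3b6 was -0.77 (adjusted p = 9.6e-05 in limma) at 48 h and -0.999 (adjusted p = 4.1e-05) in 2iL. That of Sf3b5 was -0.71 (adjusted p = 0.00029 in limma) at 48 h and -0.77 (adjusted p = 0.00026) in 2iL, and that of Sf3b3 was -0.74 (adjusted p = 1.9e-06) and -0.49 (adjusted p = 2.3e-05). Over the 48 h Sf3b3 had a difference of 0.09 (adjusted p = 0.062 in limma) in Dgcr8-/- cells and rose in wild-type cells (0.35, adjusted p = 0.00013). These changes differed by -0.25 (adjusted p = 0.0056 in limma), and Cog4 overlaps the gene.

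Sf3a2 and Sf3b4 were not called between the genotypes at either time on the deposited values. With quantile scaling Sf3a2 was called higher in the knockout at 48 h (0.23, adjusted p = 0.0041 in limma) and in 2iL (0.16, adjusted p = 0.023). Sf3b4 was then called higher at 48 h (0.28, adjusted p = 0.0056 in limma) and in 2iL (0.22, adjusted p = 0.019), and with median-ratio scaling at 48 h alone (0.19, adjusted p = 0.040). Sf3a2 had 92.7 and 90.7 FPKM in Dgcr8-/- cells at 48 h, 72.2 and 69.4 in Dgcr8-/- cells in 2iL, 87.3 and 89.8 in wild-type cells at 48 h, and 74.6 and 70.1 in wild-type cells in 2iL. Every library at 48 h lay above every library in 2iL. Within a genotype, libraries of the 2 media did not overlap for 74.2% of all genes tested in Dgcr8-/- cells and for 79.7% in wild-type cells. It rose in Dgcr8-/- cells (0.37, adjusted p = 0.00055 in limma) and in wild-type cells (0.29, adjusted p = 0.0014), and the genotype difference was 0.05 (SE 0.05) at 48 h and -0.03 (SE 0.05) in 2iL. Sf3b1, Sf3b2, Sf3b4, Sf3a1 and Sf3a3 lay between 55.0 and 127 FPKM in every library, and the genotype difference of Sf3a3 was -0.46 at 48 h and -0.52 in 2iL.

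**Figure D3:**
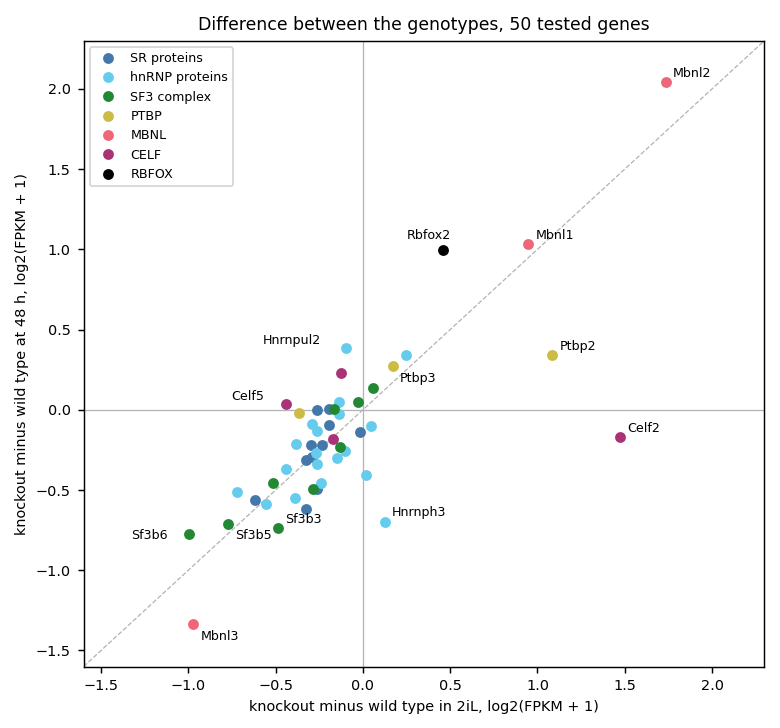
Genotype difference of each of the 50 tested genes in 2iL (x axis) and at 48 h (y axis), both Dgcr8-/- minus wild type in log2(FPKM + 1), coloured by family. The dashed line marks equal differences, Mbnl2 lies at 1.74 and 2.04 and Mbnl3 at -0.97 and -1.33, and most SR, hnRNP and SF3 genes lie below 0 on both axes.

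Gene by gene, 25 of the 50 were called lower in the knockout at both times and 5 were called higher at both times, where 24.4% of all genes were called lower at both times and 21.4% higher at both. Mbnl3 and Srsf12 are among the 25 and passed the filter only through wild-type libraries, and without these 2 the count was 23 of 48. The 5 were Hnrnpul1, Rbfox2, Ptbp2, Mbnl2 and Mbnl1, and each was called in the same direction at both times in every one of the 15 alternative settings that tested it. Of the 23, the same held for 11: Hnrnpd, Hnrnpc, Hnrnph2, Hnrnpll, Srsf1, Srsf2, Srsf9, Sf3a3, Sf3b3, Sf3b5 and Sf3b6. The median genotype difference of the 50 genes was -0.21 at 48 h, against -0.05 over all genes tested, and -0.24 in 2iL, against -0.02 over all genes. With quantile scaling the medians of the 50 were -0.018 at 48 h and -0.0033 in 2iL, and the median of all genes moved by less than 0.1. The counts were then 16 higher and 18 lower at 48 h and 15 higher and 18 lower in 2iL. Of all 13172 genes, 4351 were then higher and 5187 lower at 48 h, and 3964 and 4441 in 2iL. With median-ratio scaling the counts were 8 higher and 28 lower at 48 h and 8 higher and 29 lower in 2iL. All genes then gave 4694 higher and 4663 lower at 48 h, and 4314 and 4148 in 2iL. Within the 39 SR, hnRNP and SF3 genes alone, 2 were higher and 27 lower at 48 h and 1 was higher and 29 lower in 2iL on the deposited values. The shares of all genes called higher and lower were 33.3% and 38.5% at 48 h, and 30.6% and 32.8% in 2iL. The 27 and the 29 include Srsf12, which passed the filter only through wild-type libraries. With quantile scaling 10 were higher and 17 lower at 48 h, and 10 were higher and 15 lower in 2iL.

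**Figure D4:**
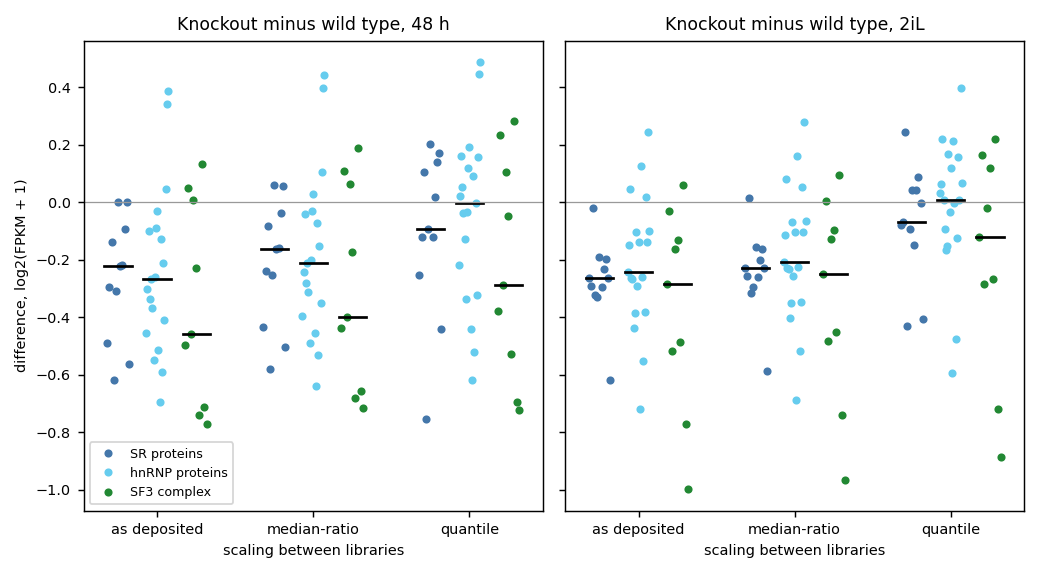
Genotype difference (Dgcr8-/- minus wild type, log2(FPKM + 1)) of each SR, hnRNP and SF3 gene at 48 h (left) and in 2iL (right), on the FPKM as deposited, after median-ratio scaling and after quantile scaling. Dots are genes and black lines family medians; the hnRNP median lies at -0.27 at 48 h and -0.24 in 2iL as deposited, and close to 0 with quantile scaling.

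Over the 48 h, 19 of the 50 genes rose and 4 fell in Dgcr8-/- cells, where 26.5% of all genes were called higher and 21.8% lower (48.3% in either direction). In wild-type cells 21 rose and 8 fell, where 30.9% of all genes were called higher and 25.6% lower (56.5% in either direction). The 21 include Srsf12, whose wild-type libraries at 48 h alone carried it past the filter. The median change of the 50 was 0.11 in Dgcr8-/- cells and 0.09 in wild-type cells, against 0.03 over all genes in each. With median-ratio scaling 17 rose and 9 fell in Dgcr8-/- cells and 16 rose and 14 fell in wild-type cells. With quantile scaling 26 rose and 6 fell in Dgcr8-/- cells and 27 rose and 5 fell in wild-type cells. Of all genes called with median-ratio scaling, 47% rose in Dgcr8-/- and 46% in wild-type cells. With quantile scaling these shares were 51.2% and 52.2%. Among the 50, no gene called here over the 48 h turned its sign between these scalings. The genes that rose in both genotypes numbered 12, against 14.4% of all genes: Hnrnpa2b1, Hnrnpab, Hnrnph1, Hnrnpll, Sf3a2, Sf3b4, Celf1, Celf4, Celf5, Ptbp2, Mbnl1 and Mbnl2. Sf3b4's rise in wild-type cells was not called with median-ratio scaling (0.16, adjusted p = 0.078 in limma) or with no filter (0.24, adjusted p = 0.058). It was also lost without either wild-type library at 48 h or the second wild-type 2iL library. Its rise in Dgcr8-/- cells was lost without the first knockout library at 48 h or the first knockout 2iL library. Leaving out the first knockout 2iL library brought the genes that fell in Dgcr8-/- cells to 8. The genes that fell in wild-type cells numbered 3 without the first wild-type library at 48 h, 4 without the second or without the first wild-type 2iL library, and 5 without the second wild-type 2iL library.

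**Figure D5:**
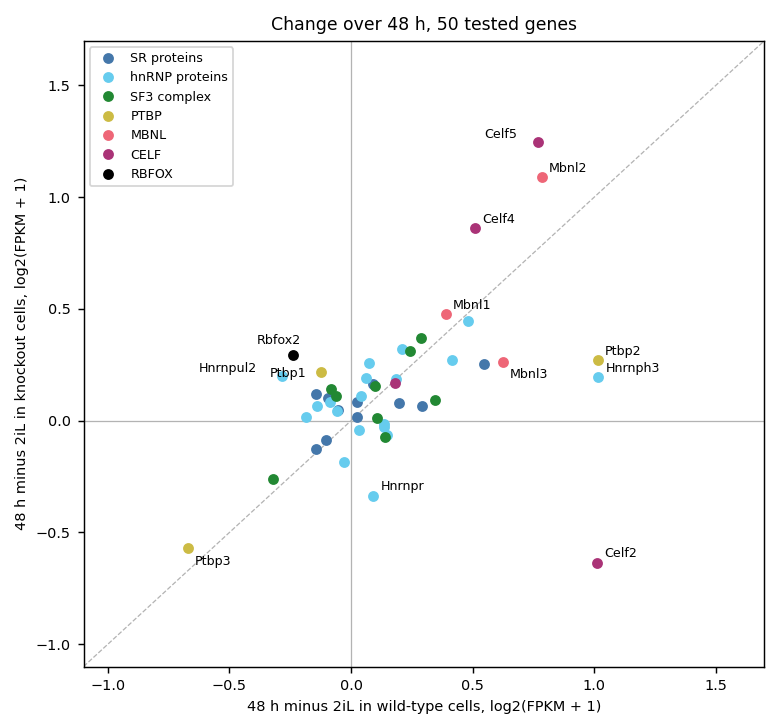
Change over 48 h of each of the 50 tested genes in wild-type cells (x axis) and in Dgcr8-/- cells (y axis), both 48 h minus 2iL in log2(FPKM + 1), coloured by family. The dashed line marks equal change; Celf2 (-0.64 in Dgcr8-/-, 1.01 in wild type), Ptbp2 and Hnrnph3 lie far below it, and Rbfox2 and Hnrnpul2 lie above it.

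The change itself differed between the genotypes for 15 of the 50 genes, 8 with a positive difference (change in Dgcr8-/- minus change in wild-type cells) and 7 with a negative one, where 21.1% and 21.7% of all genes were called. The share of 15 in 50 was below the 42.8% of all genes called in either direction. The 8 genes called in every alternative setting that tested them were Ptbp1, Ptbp2, Rbfox2, Celf2, Hnrnph3, Hnrnpr, Hnrnpul2 and Sf3b3. The other 7, Celf5, Srsf1, Srsf7, Hnrnpa0, Hnrnpf, Hnrnph2 and Hnrnpm, were lost in at least 1 setting, and the count with a positive difference was 3 without the first knockout library at 48 h. It was 4 without the second knockout library at 48 h, either wild-type library at 48 h or the second wild-type 2iL library. Rbfox2, Hnrnpul2 and Celf2 were the 3 genes called in opposite directions over the 48 h in the 2 genotypes.

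Other genes of the splicing machinery were more often lower than higher in the knockout under each scaling. A list of 72 (U1, U2 and U5 snRNP proteins, Sm core, SR kinases, SR-related coactivators and further exon-choice regulators) had 71 in the table and 69 tested. Of these 8 were higher and 49 lower in the knockout at 48 h, with a median difference of -0.32, where 33.3% of all genes were higher and 38.5% lower. In 2iL 7 were higher and 45 lower, with a median of -0.26, where 30.6% and 32.8% were. With quantile scaling 13 were higher and 37 lower at 48 h (median -0.14), and 16 were higher and 34 lower in 2iL (median -0.096). Of all genes called with that scaling, 45.6% were higher at 48 h and 47.2% in 2iL. Over the 48 h 26 of the 69 rose and 12 fell in Dgcr8-/- cells, and 31 rose and 7 fell in wild-type cells, where the shares of all genes were 26.5% and 21.8% in Dgcr8-/- cells and 30.9% and 25.6% in wild-type cells. With median-ratio scaling 23 rose and 19 fell in Dgcr8-/- cells and 20 rose and 14 fell in wild-type cells. Of all genes called with that scaling, 47% rose in Dgcr8-/- and 46% in wild-type cells. The change in Dgcr8-/- minus that in wild-type cells was called positive for 7 genes and negative for 13, against 21.1% and 21.7% of all genes. The 38 called over time in Dgcr8-/- cells became 25 or 24 without the first or the second knockout library at 48 h. The 38 called in wild-type cells became 22 or 25 without the first or the second wild-type library at 48 h, and the 20 whose change differed became 13 without the second knockout library at 48 h.

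Esrp1, an epithelial exon regulator, had the largest changes of that list. Esrp1 had 19.9 and 19.1 FPKM in Dgcr8-/- cells at 48 h, 1.96 and 2.01 in Dgcr8-/- cells in 2iL, 34.4 and 33.5 in wild-type cells at 48 h, and 8.85 and 7.59 in wild-type cells in 2iL. It rose by 2.78 in Dgcr8-/- cells (adjusted p = 8.4e-07 in limma) and by 1.93 in wild-type cells (adjusted p = 1.3e-06). Its level in 2iL was lower in the knockout (-1.62, adjusted p = 4.4e-06). Between the genotypes at 48 h the largest lower differences were those of Esrp2 (-1.29), Taf15 (-1.28) and Khdrbs3 (-0.99), and the largest higher ones those of Cdc5l (0.84), a Prp19 complex protein, Nova2 (0.62), a neuronal exon regulator, and Tra2a (0.39), an SR-related coactivator. In 2iL Khdrbs3 (-0.85) and Snrnp40 (-0.84) were lower and Rbm47 (0.84), Srpk2 (0.57) and Tra2a (0.41) higher. Over the 48 h Nova2 rose in Dgcr8-/- cells (1.27) and Cdc5l fell in wild-type cells (-1.02). Tia1 rose in Dgcr8-/- cells (0.83) and wild-type cells (0.80), and Rbm47 fell in both (-1.12 and -0.53). Clk3 (-0.43) and Srrm1 (-0.31) fell in Dgcr8-/- cells, and Qk (-0.39) fell in wild-type cells. Srrm4, with 0.70 in wild-type cells, passed the filter only through the wild-type libraries at 48 h and is counted among the 49 lower at that time and the 31 that rose. Among those called, the genotypes differed most in these changes for Nova2 (1.18), Esrp1 (0.85) and Cdc5l (0.75) with a positive difference, and for Esrp2 (-0.72), Prpf39 (-0.55) and Srpk2 (-0.47) with a negative one.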

How the data were processed

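Total RNA libraries were made with a dUTP protocol, per the labels' protocols. The submitters' processing notes name STAR 2.5.0, Cufflinks 2.2.1 and the mouse build mm10, and the authors deposited 1 table of FPKM per Ensembl gene for the 8 libraries; read numbers and the strand setting of the counting are not given in the sources used here, and FPKM from Cufflinks is a model estimate that can divide reads between overlapping or similar genes. Ensembl IDs were matched to symbols for 40124 of 41258 entries, and 56 IDs occurred more than once, none of them a gene described here. Overlapping gene models are named above for some of the genes that have them and not for all. The small RNA table was not used here.

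The 13172 genes that reached 1 FPKM in 2 or more of the 8 libraries were fitted as log2(FPKM + 1) with limma 3.58.1 in R 4.3.3 (4 group means, intensity trend, residual df 4, prior df 3.11), and p-values were adjusted by Benjamini-Hochberg over all of them. The median standard error was 0.0882 for a difference of 2 groups and 0.125 for a difference of differences. The procedure was tested on simulated data. Values in every library are given for the 10 genes with the largest called differences in each of 5 comparisons and the 3 most abundant genes; Hnrnpul1 and Srsf1 were added after their values were seen. The genes and lists were chosen with earlier results of these data known. Libraries were not treated as paired by number, since same-numbered libraries' deviations correlated between -0.15 and 0.18. Alternatives were median-ratio and quantile scaling, a pseudocount of 0.1, no filter, a mean of at least 5 FPKM, no intensity trend, a replicate block and leaving out each library.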

Additional observations from a re-analysis of the deposited data

Results flagged for a closer look

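For 15 genes the change over 48 h (48 h minus 2iL, log2(FPKM + 1)) differed between the genotypes in limma's test of the difference itself, given here as the change in Dgcr8-/- cells minus that in wild-type cells. Celf2 gave -1.65, Hnrnph3 -0.82, Ptbp2 -0.74, Hnrnpr -0.43, Sf3b3 -0.25, Srsf1 -0.23 and Hnrnpa0 -0.21. Rbfox2 gave 0.54, Hnrnpul2 0.49, Celf5 0.48, Ptbp1 0.34, Srsf7 0.26, Hnrnph2 0.21, Hnrnpf 0.20 and Hnrnpm 0.17. For Celf2, Rbfox2 and Hnrnpul2 the change was called in opposite directions in the 2 genotypes. Groups of 2 libraries are too small for a test of single outlying libraries.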

How the results depend on the processing

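Of 300 counts recomputed over 15 settings, 274 stayed within 1.5 times the value given. Of 2110 recomputed values of called genes, 1889 kept direction and call, 208 lost the call and 13 changed direction, all with quantile scaling. In 2iL these were the genotype differences of Hnrnpa0 (0.031), Hnrnpa1 (0.063), Hnrnpa3 (0.0076), Hnrnph1 (0.12), Sf3b2 (0.12), Srsf3 (0.041), Srsf5 (0.044) and Srsf6 (0.090), and at 48 h those of Hnrnpa1 (0.022), Hnrnpa3 (0.053), Hnrnpl (0.090), Srsf11 (0.11) and Srsf5 (0.018). Quantile scaling gave 16 genes higher and 18 lower in the knockout at 48 h, 15 and 18 in 2iL, and 5 that fell in wild-type cells over 48 h. Median-ratio scaling gave 9 that fell in Dgcr8-/- and 14 in wild-type cells. Without the intensity trend 5 fell in wild-type cells, and 5 had a positive difference in change (Dgcr8-/- minus wild type), as did 5 with the replicate block, which moved no other count of these genes by over 1.5 times. At a mean of at least 5 FPKM, with 8588 genes tested, 3612 genes in all differed in change between the genotypes, against 5641. Leaving out 1 library gave 3 to 9 genes with a positive difference in change, 3 to 8 that fell in Dgcr8-/- and 3 to 11 in wild-type cells. For the other splicing genes it gave 24 to 38 called over time in Dgcr8-/- cells, 22 to 43 in wild-type cells and 13 to 26 for the difference in change. The cause of these shifts was not tested. Leaving out 1 library of a group assumes that the lone one varies like the other groups. With 2 libraries a group and no read numbers, differences of the size of the standard errors given were not detectable.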
